A study of Mus musculus with 12 samples.

Results

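The 35 genes described here encode the enzymes and regulators of cholesterol and fatty acid synthesis in primary microglia of the mouse, brain macrophages that live within the tissue. They were taken by gene symbol from a table of 46262 genes, and all 35 were found, as 186 of the table's 115879 transcripts. By role, 18 carry out sterol steps, 6 regulate the pathway or carry sterol, and 11 serve fatty acid synthesis, elongation and desaturation. The microglia came from mixed glial cultures of wild-type (WT) mice and were kept for 24 hours with 1 of 2 ligands of the receptor encoded by Csf1r. The 4 groups of 3 libraries each were cerebellar microglia with IL-34 at 100 ng/ml, cerebellar microglia with CSF-1 at 20 ng/ml, forebrain microglia with IL-34 at 100 ng/ml and forebrain microglia with CSF-1 at 20 ng/ml. No group went without a ligand, each ligand had a single dose, and the effects of ligand and dose cannot be told apart. The name of the deposited table calls the microglia neonatal, and the labels give no further age, strain or sex, while the design text calls the mixed glial cultures independent, 3 per group. Values are in TPM, the share of a library's transcripts that a gene takes up after correction for length, so levels of different genes may be set side by side. Depth behind a value is unknown.

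Cholesterol is built from acetyl-CoA through mevalonate and isoprenoid phosphates to squalene, which is closed into lanosterol and then trimmed to cholesterol. The transcription factors SREBP-2 and SREBP-1, encoded by Srebf2 and Srebf1, switch on the sterol and fatty acid genes when SCAP carries them out of the endoplasmic reticulum, and the INSIG proteins hold them back when sterol is plentiful. The brain makes its own cholesterol, because lipoproteins of the blood do not cross the blood-brain barrier. Microglia take up lipid from debris and myelin and pass cholesterol on through LXR-controlled transporters and apolipoprotein E.

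SREBP factors act at many of these promoters together with NF-Y, a factor that binds the CCAAT box. RefSeq promoter windows of the GRCm38.p6 build, 250 bases before the annotated start, were at hand for 28 of the 35 genes, in 37 windows. The letters CCAAT stood on either strand in 14 of 18 windows of sterol step genes (77.8%) and in 4 of 9 windows of fatty acid genes (44.4%), against 33.8% of all 32851 windows. The core of a classical sterol regulatory element, TCACNCCA with N for any base, was searched on both strands and found in 3 of the 37 windows (8.11%), those of Hmgcs1, Msmo1 and Srebf2, against 3.67% of all windows. A match is only a run of letters, not a shown binding site. The windows of 5 genes whose levels differed between groups are shown on the gene's strand, ending at the base before the start. Capitals mark the matches, where ATTGG is a CCAAT box on the other strand, and the single TCACCCCA in Hmgcs1 is the sterol element core.
Hmgcs1 (chr13:119690101-119690350, plus strand): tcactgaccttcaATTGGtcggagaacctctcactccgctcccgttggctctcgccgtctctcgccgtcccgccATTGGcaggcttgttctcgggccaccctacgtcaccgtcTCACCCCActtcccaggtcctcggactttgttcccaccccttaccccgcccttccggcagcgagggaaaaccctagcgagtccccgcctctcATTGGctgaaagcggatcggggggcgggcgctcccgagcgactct
Mvd (chr8:122443423-122443672, minus strand): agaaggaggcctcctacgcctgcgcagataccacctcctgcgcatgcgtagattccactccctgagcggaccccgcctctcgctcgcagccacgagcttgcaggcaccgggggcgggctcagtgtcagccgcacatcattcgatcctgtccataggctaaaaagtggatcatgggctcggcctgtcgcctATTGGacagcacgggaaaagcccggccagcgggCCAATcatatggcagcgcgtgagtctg
Ebp (chrX:8193513-8193762, minus strand): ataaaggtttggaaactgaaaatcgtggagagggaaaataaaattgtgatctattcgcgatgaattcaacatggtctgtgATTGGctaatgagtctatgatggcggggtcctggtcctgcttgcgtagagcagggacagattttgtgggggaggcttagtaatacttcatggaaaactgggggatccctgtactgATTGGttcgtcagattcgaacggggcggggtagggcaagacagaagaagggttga
Sc5d (chr9:42264301-42264550, minus strand): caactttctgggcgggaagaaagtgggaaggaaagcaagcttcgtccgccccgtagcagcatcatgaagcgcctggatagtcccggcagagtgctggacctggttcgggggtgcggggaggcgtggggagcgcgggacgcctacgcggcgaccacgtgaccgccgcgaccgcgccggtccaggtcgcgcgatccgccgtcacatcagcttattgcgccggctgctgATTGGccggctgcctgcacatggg
Fasn (chr11:120824548-120824797, minus strand): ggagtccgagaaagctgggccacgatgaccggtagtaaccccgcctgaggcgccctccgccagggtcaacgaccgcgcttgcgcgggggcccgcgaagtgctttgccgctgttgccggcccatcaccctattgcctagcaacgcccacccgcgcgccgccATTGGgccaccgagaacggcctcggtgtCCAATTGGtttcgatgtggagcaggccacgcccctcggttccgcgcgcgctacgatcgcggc
The first bases of the CCAAT matches lay 237, 176 and 45 bases before the start in Hmgcs1, 60 and 27 in Mvd, 170 and 55 in Ebp, 24 in Sc5d, and 90, 62 and 59 in Fasn, where the last pair overlap. In Hmgcs1 the sterol element core began 137 bases before the start.

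The cells carried the transcripts of microglia. The 10 microglial markers summed to between 7313 and 9563 TPM over the 12 libraries, although 1 of them, Tyrobp, was listed at 0 in some, and 11740 to 11904 genes per library reached 1 TPM. Of 10 astrocyte markers, 2 stayed under 1 TPM in every library, Slc1a2 among them, and of 10 oligodendrocyte markers Mog and Sox10 did. Libraries of the cerebellar IL-34 group stood apart in their share of short transcripts. Transcripts shorter than 600 nt took 2.58, 3.31 and 0.947% of TPM in cerebellar microglia with IL-34, against 0.0269 to 0.555% in the other 9 libraries. Since this difference moves with the group, the contrasts that use it were also fitted without replicates 1 and 2 of cerebellar microglia with IL-34. Length varied among the other libraries too. The length floor, percentile 1 of length among transcripts at 5 TPM or more, ran from 598 to 669 nt within forebrain microglia with CSF-1. Component 1 of a principal component analysis of the 12 libraries held 41.1% of variance and correlated with this floor at r = -0.97. Leaving out 2 libraries therefore does not remove all differences in length.

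As a whole, the sterol branch was highest in cerebellar microglia with IL-34 and lowest in forebrain microglia with CSF-1. The 18 sterol step genes together made up 1323, 1332 and 1434 TPM in cerebellar microglia with IL-34 and 1294, 1281 and 1239 TPM in cerebellar microglia with CSF-1. In forebrain microglia they made up 1247, 1217 and 1185 TPM with IL-34 and 1089, 1082 and 1050.2 TPM with CSF-1. In both regions every library with IL-34 lay above every library with CSF-1, and forebrain libraries with IL-34 overlapped cerebellar libraries with CSF-1. Gene by gene, 14 of the 18 (77.8%) had their highest group mean in cerebellar microglia with IL-34, where 19% of all 12419 genes tested had theirs, and 14 had their lowest in forebrain microglia with CSF-1, where 16.9% of all genes did. The fatty acid branch was ordered otherwise. Its 11 genes summed to 609, 626 and 653 TPM in cerebellar microglia with IL-34 and 632, 647 and 626 TPM in cerebellar microglia with CSF-1. In forebrain microglia the sums were 586, 544 and 545 TPM with IL-34 and 565, 591 and 581 TPM with CSF-1. The cerebellar libraries all lay above the forebrain ones, and the ligands overlapped in each region. Of the 10 fatty acid genes tested, 8 (80%) had their highest mean in cerebellar microglia with CSF-1, against 38.8% of all genes. These orders are descriptions of the means and were not tested as such.

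**Figure D1:**
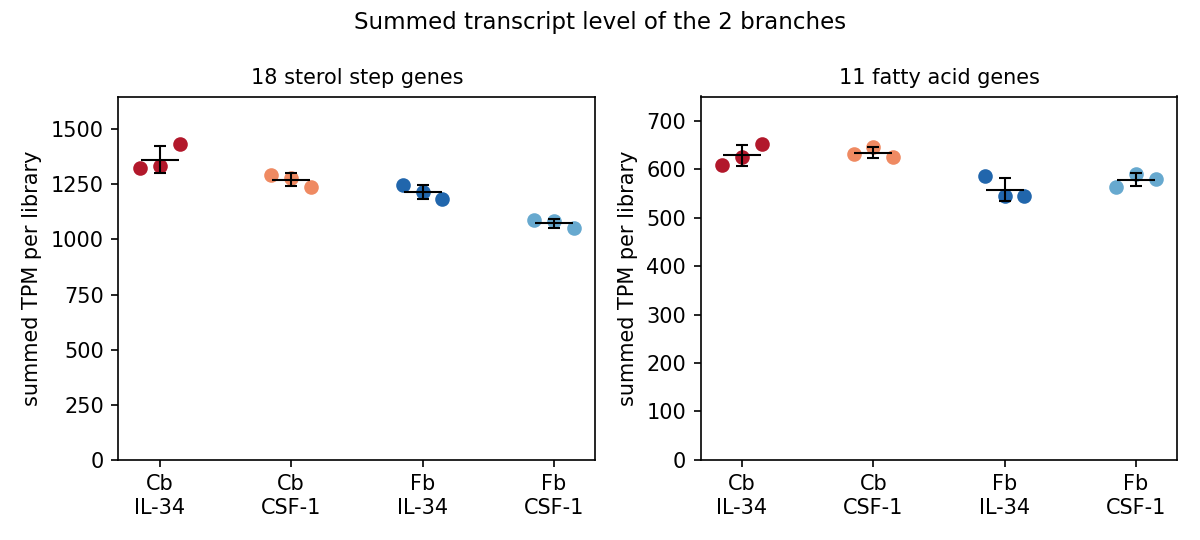
Summed TPM per library (y axis, from 0) of the 18 sterol step genes and the 11 fatty acid genes in the 4 groups (Cb, cerebellum, Fb, forebrain). Points are libraries and lines are the group mean with its SD (n = 3). The sterol sums of forebrain microglia with CSF-1, 1050.2 to 1089 TPM, lie below all others, and the fatty acid sums separate by region.

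The first question was whether IL-34 and CSF-1 leave microglia with different levels of these genes. Averaged over both regions, 5 sterol step genes rose with IL-34 relative to CSF-1, Mvd, Hmgcs1, Fdft1, Fdps and Idi1, by log2 differences of 0.18 to 0.29 on the log2(TPM + 1) scale. The regulator gene Scap fell by 0.19. No fatty acid gene passed the test. The test was limma across the 12419 genes that reached 1 TPM in 3 or more libraries, with Benjamini-Hochberg adjustment, called at an adjusted p under 0.05, and 34 of the 35 genes passed this filter. The 6 genes called compare with 13.4% of all genes called in either direction. In the upward direction 5 of 18 sterol step genes were called (27.8%) and 2.73% of all genes, and in the downward direction 1 of the 34 genes and 10.7% of all genes. The median log2 difference was 0.19 for the sterol step genes and -0.09 for the 10 fatty acid genes, with -0.07 for all genes. After median-of-ratios scaling 13 of the 34 genes were called higher and 0 lower, with 5.67% of all genes higher, and after quantile normalization 8 higher and 0 lower, with 3.82% of all genes higher.

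The sterol step genes called in the main fit stand in the early part of the pathway, from the entry to squalene. Genes of later steps were also called in other settings. They were Sqle, Lss, Cyp51 and Sc5d after median-of-ratios scaling, and Lss and Cyp51 after quantile normalization. Hmgcs1 (ENSMUSG00000093930, chr13:119690379-119708260, with all gene positions in GRCm38) encodes the synthase that makes HMG-CoA, from which mevalonate is formed. It had 96.0, 101 and 99.1 TPM in cerebellar microglia with IL-34 and 94.2, 85.2 and 87.3 TPM in cerebellar microglia with CSF-1. In forebrain microglia it had 95.9, 87.3 and 81.0 TPM with IL-34 and 69.4, 74.3 and 71.4 TPM with CSF-1. The IL-34 libraries lay above the CSF-1 libraries in both regions, with no overlap, and the mean log2 difference was 0.22 (SE 0.05, limma adjusted p = 0.0126).

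Mvd (ENSMUSG00000006517, chr8:122433601-122443422) encodes the decarboxylase that yields isopentenyl diphosphate, the unit of all isoprenoids. It had 23.6, 22.9 and 21.9 TPM in cerebellar microglia with IL-34 and 18.3, 19.0 and 17.8 TPM in cerebellar microglia with CSF-1. Forebrain microglia had 19.7, 19.4 and 20.9 TPM with IL-34 and 15.6, 15.6 and 17.98 TPM with CSF-1. No IL-34 library of a region overlapped a CSF-1 library of it, and the mean difference of 0.29 (SE 0.05, limma adjusted p = 0.00608) was the largest of the 5. Fdft1 (ENSMUSG00000021273, chr14:63145150-63179578) encodes squalene synthase, the first enzyme committed to sterols. Its levels were 49.8, 52.5 and 53.6 TPM in cerebellar microglia with IL-34 and 48.9, 47.6 and 45.4 TPM in cerebellar microglia with CSF-1. In forebrain microglia they were 51.5, 47.4 and 43.6 TPM with IL-34 and 39.6, 36.7 and 38.5 TPM with CSF-1. Here too the ligands did not overlap within a region, and the mean log2 difference was 0.22 (SE 0.05, limma adjusted p = 0.0149). Of the 18 sterol step genes, these 3 were without overlap in both regions, a pattern seen upward in 1.64% of all genes. Fdft1 overlaps Ctsb on the opposite strand over 774 bases. The kit does not mark strand, and Ctsb is far more abundant, with a mean of 6920 TPM over the 12 libraries, so some reads of Fdft1 may not be told apart from those of Ctsb. The log2 difference of Ctsb itself was 0.09 (limma adjusted p = 0.0801) for the mean ligand contrast and 0.16 (limma adjusted p = 0.0454) in the cerebellum, and 0.08 (limma adjusted p = 0.335) between regions under CSF-1. Its part in the values of Fdft1 was not tested.

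Idi1 and Fdps were called with smaller margins. Idi1 (ENSMUSG00000058258, chr13:8885501-8892451) encodes the isomerase of isopentenyl diphosphate. It had 64.6, 60.9 and 70.0 TPM in cerebellar microglia with IL-34 and 63.9, 63.4 and 60.1 TPM in cerebellar microglia with CSF-1, which overlapped. Forebrain microglia had 68.2, 61.0 and 60.6 TPM with IL-34 and 47.7, 55.6 and 49.4 TPM with CSF-1, which did not overlap. The mean log2 difference was 0.18 (SE 0.05, limma adjusted p = 0.0447).

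Fdps (ENSMUSG00000059743, chr3:89093588-89101959) encodes the synthase of farnesyl diphosphate, at the branch between sterols and the other isoprenoids. It had 261, 242 and 283 TPM in cerebellar microglia with IL-34 and 219.9, 256 and 223 TPM in cerebellar microglia with CSF-1. Its forebrain values were 244, 257 and 226 TPM with IL-34 and 211, 199 and 199.9 TPM with CSF-1. The ligands overlapped in the cerebellum and not in the forebrain, with a mean log2 difference of 0.21 (SE 0.05, limma adjusted p = 0.027). Transcripts under 1000 nt carried 30.5 to 45.1% of the Fdps signal, and Fdps shares 1124 bases on the same strand with the predicted gene Gm43738, so part of its level may belong to Gm43738.

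Of the other sterol step genes, 6 had an unadjusted p under 0.05 for the mean of both regions, a level whose share of all genes was not computed. None of these 6 passed the adjusted threshold, and all had higher means under IL-34. They were Acat2, which encodes a cytosolic thiolase at the entry, Pmvk of the mevalonate steps, the lanosterol synthase gene Lss, the lanosterol demethylase gene Cyp51, and Ebp and Dhcr7 of the last steps. Cyp51 came nearest, with a log2 difference of 0.23 (SE 0.07, limma adjusted p = 0.052). It had 74.9, 99.1 and 75.8 TPM in cerebellar microglia with IL-34 and 77.4, 75.6 and 71.2 TPM in cerebellar microglia with CSF-1. In the forebrain it had 73.6, 70.8 and 62.4 TPM with IL-34 and 54.0, 55.8 and 54.3 TPM with CSF-1. Msmo1, with the highest mean of the sterol step genes at 266 to 343 TPM, had a log2 difference of 0.04 (SE 0.04), and Nsdhl, whose product works beside that of Msmo1 in removing the methyl groups of lanosterol, had a fold ratio of 0.999.

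Among the regulators Scap alone was called. Scap (ENSMUSG00000032485, chr9:110333288-110384950) encodes the escort protein of the SREBP factors. It had 34.2, 32.5 and 31.8 TPM in cerebellar microglia with IL-34 and 40.9, 36.9 and 37.5 TPM in cerebellar microglia with CSF-1. Forebrain libraries had 32.6, 30.7 and 29.7 TPM with IL-34 and 32.8, 35.7 and 35.5 TPM with CSF-1. Every IL-34 library lay below every CSF-1 library of its region, with a mean log2 difference of -0.19 (SE 0.05, limma adjusted p = 0.0227). A lack of overlap in both regions was seen downward in 6.35% of all genes. The call was lost after median-of-ratios scaling, after quantile normalization and with the length floor as a covariate. It was also lost on transcripts of 1000 nt or more with length and GC trends removed. The log2 difference lay between -0.21 and -0.06 over all alternatives.

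Stard4 encodes a carrier that moves cholesterol between membranes. It had 12.5, 13.1 and 11.2 TPM in cerebellar microglia with IL-34 and 13.2, 10.5 and 11.1 TPM in cerebellar microglia with CSF-1. In forebrain microglia it had 14.1, 14.1 and 13.2 TPM with IL-34 and 8.33, 6.90 and 11.97 TPM with CSF-1. Only in the forebrain were the ligands without overlap, and neither contrast passed, with log2 differences of 0.08 (SE 0.16, limma adjusted p = 0.779) in the cerebellum and 0.59 (SE 0.16, limma adjusted p = 0.104) in the forebrain. Insig1, which encodes a sterol-sensing brake on SCAP, had a mean log2 difference of 0.13 (SE 0.05, limma adjusted p = 0.126). For the factors themselves the mean log2 difference was 0.03 (SE 0.05) for Srebf2 and -0.13 (SE 0.08) for Srebf1, and for Insig2 it was -0.02 (SE 0.05).

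Leaving out replicates 1 and 2 of cerebellar microglia with IL-34 left 0 of the 6 calls by limma, where 3.2% of all genes were called. The log2 differences of the 5 sterol genes were then 0.22 for Hmgcs1, 0.26 for Mvd, 0.24 for Fdft1, 0.24 for Idi1 and 0.27 for Fdps, with limma adjusted p between 0.0584 and 0.0876. With each of the 12 libraries left out in turn, Hmgcs1, Mvd and Fdft1 were called every time, with log2 differences of 0.19 to 0.25, 0.27 to 0.32 and 0.19 to 0.25. Fdps was called in 6 of the 12 fits at 0.18 to 0.24 and Scap in 6 at -0.21 to -0.17. Idi1 was called in 2, those without replicate 2 of cerebellar microglia with IL-34 or of forebrain microglia with CSF-1, at 0.16 to 0.22. In all, 3 genes were called without replicate 1 of cerebellar microglia with CSF-1 or without replicate 2 of forebrain microglia with IL-34. Without replicate 1 of forebrain microglia with IL-34, 4 genes were called higher and 3 lower.

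**Figure D2:**
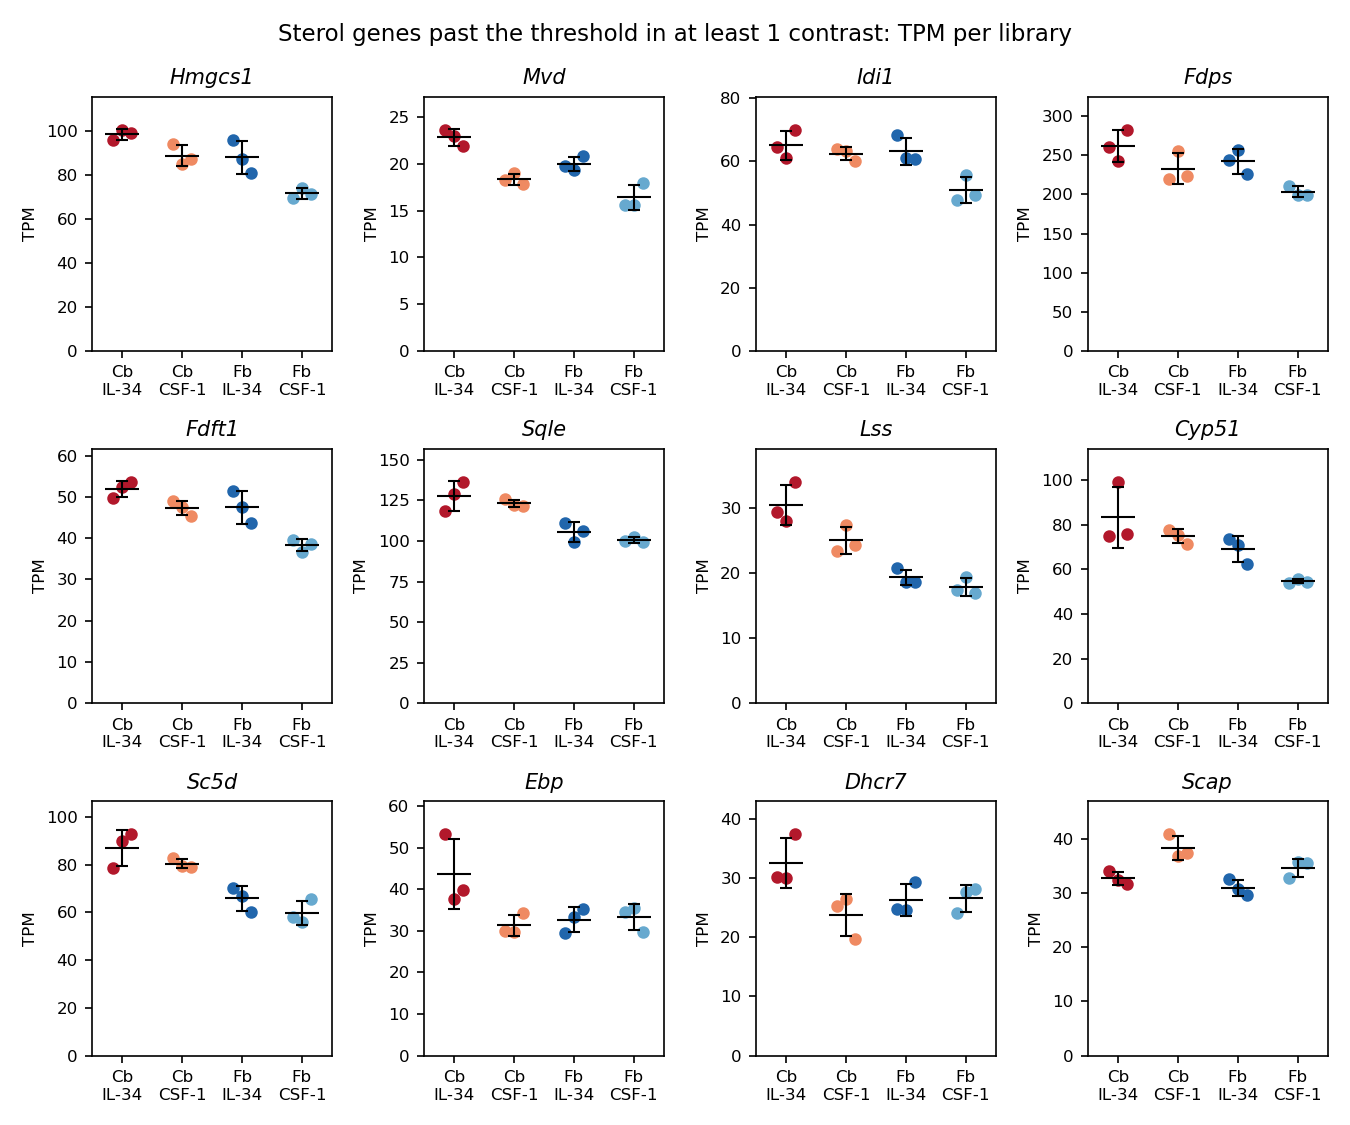
TPM per library (y axes, from 0) of sterol pathway genes in the 4 groups (Cb, cerebellum, Fb, forebrain), with group means and SD (n = 3). Hmgcs1, Mvd and Fdft1 are higher with IL-34 than with CSF-1 in every library of a region, and Scap is lower.

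Within the cerebellum alone, IL-34 gave higher levels of 3 sterol step genes and a lower level of Scap. The 4 genes called of 34 compare with 12.8% of all genes in either direction, and the 3 of 18 sterol step genes (16.7%) with 3.0% of all genes upward. Downward, 1 of 34 was called and 9.82% of all genes. After median-of-ratios scaling the split was 9 higher and 0 lower, with 5.58% of all genes higher, and after quantile normalization 4 higher and 0 lower, with 3.63% of all genes higher. In 8 of the 18 every IL-34 library lay above every CSF-1 library, as it did in 8.21% of all genes. The sterol genes called were Mvd, with a log2 difference of 0.30 (SE 0.07, limma adjusted p = 0.0264), and Ebp and Dhcr7, which work near the end of the pathway. Ebp (ENSMUSG00000031168, chrX:8185329-8193512) encodes the sterol isomerase and had 53.3, 37.8 and 39.9 TPM with IL-34 and 30.1, 29.8 and 34.3 TPM with CSF-1, a log2 difference of 0.45 (SE 0.13, limma adjusted p = 0.0419). Replicate 1 with IL-34 was the highest, and all 3 libraries with IL-34 exceeded those with CSF-1. Dhcr7 (ENSMUSG00000058454, chr7:143823145-143848410) encodes the reductase that finishes cholesterol from its 7-dehydro precursor. It had 30.2, 29.9 and 37.4 TPM with IL-34 and 25.3, 26.4 and 19.7 TPM with CSF-1, a log2 difference of 0.44 (SE 0.13, limma adjusted p = 0.0451). In forebrain microglia Ebp had 29.4, 33.4 and 35.4 TPM with IL-34 and 34.6, 35.6 and 29.9 TPM with CSF-1, and Dhcr7 had 24.8, 24.7 and 29.4 TPM with IL-34 and 24.0, 27.6 and 28.1 TPM with CSF-1, so that both overlapped. Scap had a log2 difference of -0.22 (SE 0.07, limma adjusted p = 0.0489) in the cerebellum. Transcripts under 1000 nt, which moved with this group, made up a mean of 29.8% of the Dhcr7 signal in cerebellar microglia with IL-34 and 11.8% in cerebellar microglia with CSF-1. On transcripts of 1000 nt or more Dhcr7 was not called. Without replicates 1 and 2 of cerebellar microglia with IL-34, limma called 0 of these genes and 0.539% of all genes. The calls were not stable to single libraries either: none was left without replicate 1, 2 or 3 of cerebellar microglia with CSF-1 or without replicate 1 or 2 of cerebellar microglia with IL-34. Only 1 or 2 were left without replicate 3 of cerebellar microglia with IL-34, without replicate 1, 2 or 3 of forebrain microglia with CSF-1 or without replicate 2 or 3 of forebrain microglia with IL-34.

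Within the forebrain alone, limma called 0 of the 34 genes, with 1.2% of all genes called. An unadjusted p under 0.05 was reached by 10 of them, but the share of all genes at that level was not computed. In 8 of the 18 sterol step genes every IL-34 library lay above every CSF-1 library, as it did in 5.9% of all genes. They were Hmgcs1, Mvk, Mvd, Idi1, Fdps, Fdft1, Cyp51 and Msmo1. Fdft1 had the lowest limma adjusted p of the list, 0.0624, at a log2 difference of 0.30 (SE 0.07), and Hmgcs1 followed at 0.29 (SE 0.07, limma adjusted p = 0.0649). Median-of-ratios scaling called 4 sterol step genes here, Mvd, Fdft1, Idi1 and Hmgcs1, all higher with IL-34, against 1.13% of all genes, and quantile normalization called 3 of these, Fdft1, Idi1 and Hmgcs1, against 0.701% of all genes. Without replicate 3 of forebrain microglia with CSF-1, 1 gene was called.

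Whether the ligand difference itself differed between the regions was tested by the region by ligand interaction, taken as the cerebellar minus the forebrain difference. None of the 34 genes was called by limma, with 0.145% of all genes called. Leaving out replicates 1 and 2 of cerebellar microglia with IL-34 also gave 0 calls. An unadjusted p under 0.05, a level whose share of all genes was not computed, was reached by 5 genes. They were Mvk (-0.37, SE 0.12), Idi1 (-0.25, SE 0.11) and Stard4 (-0.51, SE 0.22), whose ligand difference was smaller or of the other sign in the cerebellum, and Ebp (0.47, SE 0.18) and Dhcr7 (0.45, SE 0.18), whose difference was larger there. The lowest limma adjusted p among them was 0.31, for Mvk, which encodes mevalonate kinase. Mvk had 15.1, 13.8 and 13.5 TPM in cerebellar microglia with IL-34 and 15.2, 16.7 and 14.5 TPM in cerebellar microglia with CSF-1, against 16.5, 17.8 and 16.7 TPM with IL-34 and 12.8, 14.8 and 14.9 TPM with CSF-1 in forebrain microglia. A ligand effect called in one region and not in the other was therefore not shown to differ between them.

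**Figure D3:**
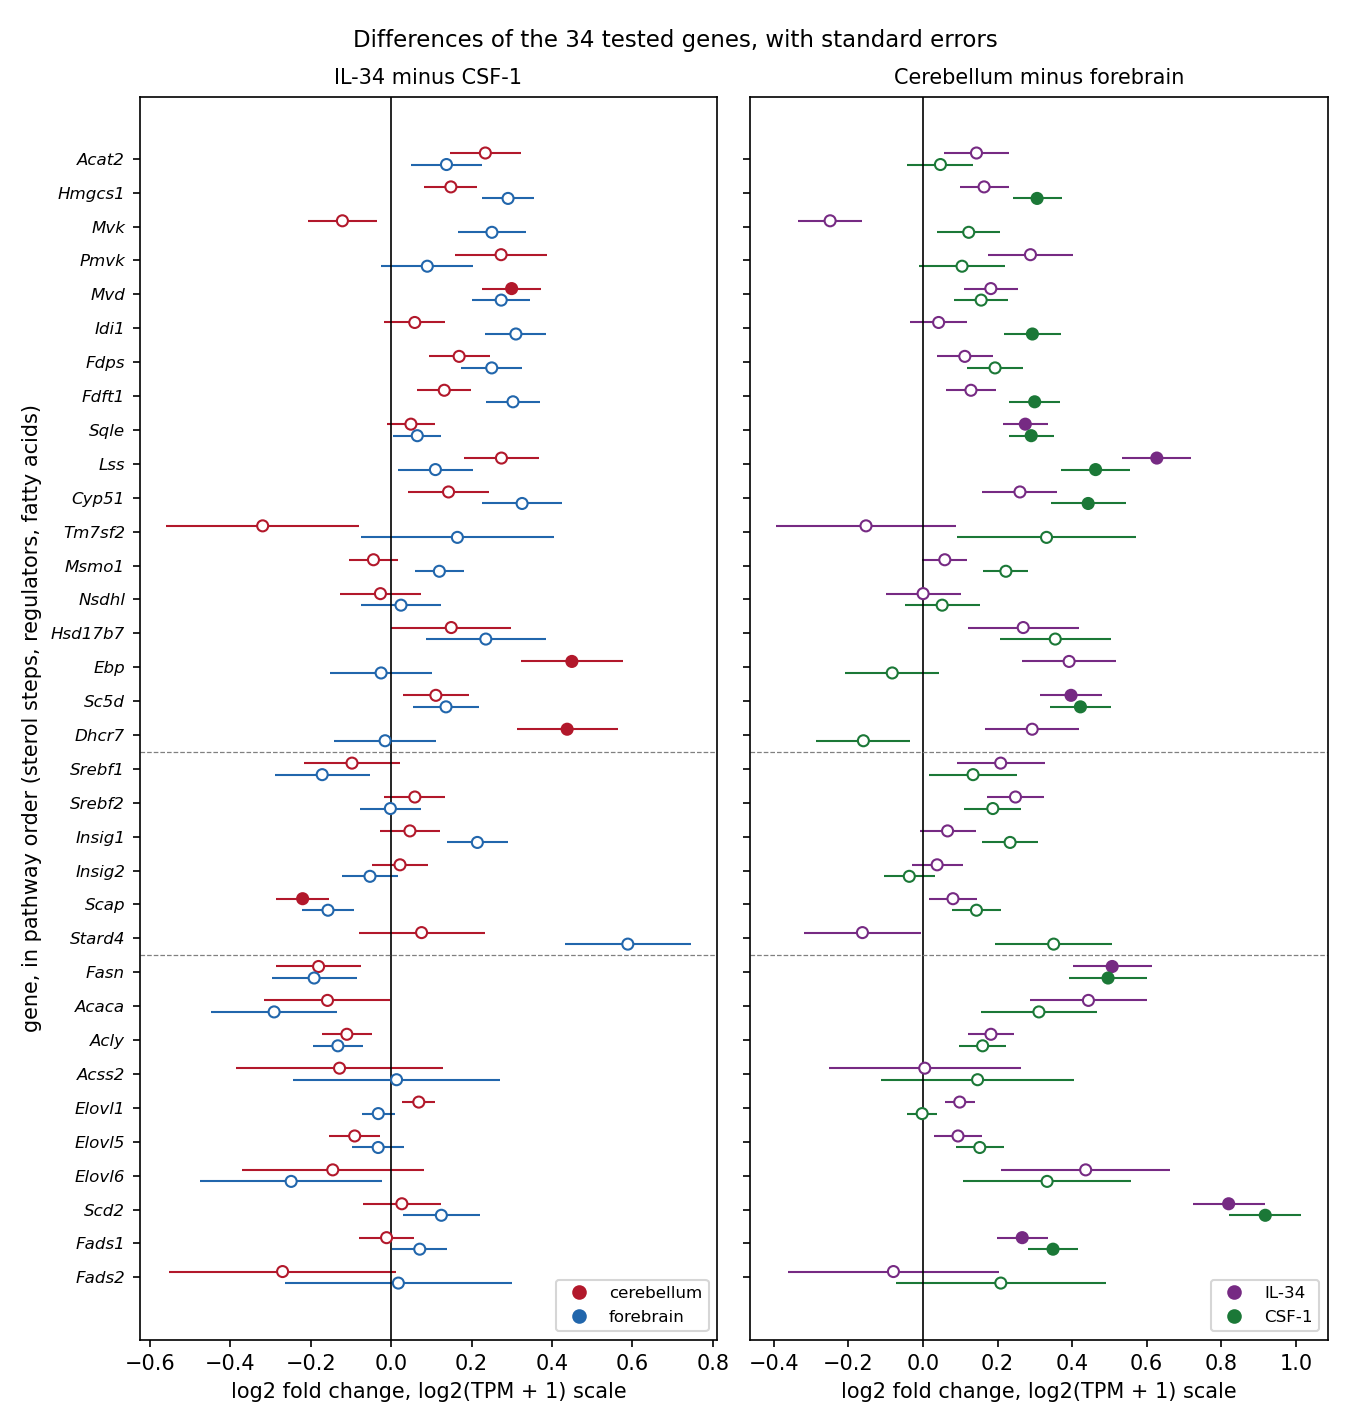
Log2 differences of the 34 genes tested (x axes, log2(TPM + 1) scale) with standard errors, for IL-34 minus CSF-1 in each region (left) and cerebellum minus forebrain under each ligand (right), in pathway order from top to bottom. Filled points passed limma at an adjusted p under 0.05. Most sterol genes lie right of 0 in both panels, while the fatty acid genes Scd2, Fasn and Fads1 stand out only in the right panel.

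The second question was how cerebellar and forebrain microglia differ under the same ligand. Cerebellar microglia had higher levels of genes of both branches, and none of the 34 genes was called lower, except Mvk under IL-34 after quantile normalization or with limma's array weights. Under IL-34, 6 genes rose in cerebellum relative to forebrain, the sterol genes Lss, Sc5d and Sqle and the fatty acid genes Scd2, Fasn and Fads1. The 6 of 34 compare with 13.5% of all genes called in either direction, 5.27% upward and 8.22% downward. Under CSF-1, 10 were called, the same 6 genes with Hmgcs1, Idi1, Fdft1 and Cyp51, where 6.71% of all genes were called in either direction, 3.29% upward and 3.42% downward. The 6 genes shared were 100% of the calls under IL-34 and 60% of those under CSF-1. The group means of the contrasts come from different libraries. Both contrasts use a common estimate of the spread from all 12 libraries, so their calls are not independent. The share of calls in common over all genes was not computed. By branch, 3 of 18 sterol step genes (16.7%) and 3 of 10 fatty acid genes (30%) were called under IL-34, and 7 of 18 (38.9%) and 3 of 10 (30%) under CSF-1. The median log2 difference was 0.17 and 0.22 for the sterol and fatty acid genes under IL-34 and 0.26 for each under CSF-1, with -0.02 and 0.03 for all genes. Cerebellar libraries lay above all forebrain libraries in 9 of 18 sterol step and 6 of 10 fatty acid genes under IL-34, and in 10 of 18 and 6 of 10 under CSF-1, as they did in 14.1% of all genes under IL-34 and 17.2% under CSF-1. Under IL-34 the cerebellar libraries lay below all forebrain ones for Mvk, as for 18.9% of all genes, at a log2 difference of -0.25 (SE 0.08, limma adjusted p = 0.0759) that quantile normalization moved to -0.28 (limma adjusted p = 0.0339).

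Of the 34 genes, Scd2 showed the largest difference between regions under either ligand. Scd2 (ENSMUSG00000025203, chr19:44293674-44306864) encodes a stearoyl-CoA desaturase that puts the double bond into oleate and is the main form of the mouse brain. It had 26.1, 28.2 and 29.1 TPM in cerebellar microglia and 17.3, 15.1 and 13.7 TPM in forebrain microglia with IL-34, and 28.6, 27.3 and 25.9 TPM in cerebellar microglia and 12.4, 15.2 and 14.3 TPM in forebrain microglia with CSF-1. The regions were far from overlapping under either ligand, at log2 differences of 0.82 (SE 0.10, limma adjusted p = 0.000449) with IL-34 and 0.92 (SE 0.10, limma adjusted p = 0.000273) with CSF-1. Scd1, the desaturase of liver and fat, failed the filter on low values and lay at 0.212 to 0.796 TPM in every library, far below Scd2 in all 4 groups.

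Fasn (ENSMUSG00000025153, chr11:120805846-120824547) encodes fatty acid synthase, which makes palmitate. It had 19.4, 19.7 and 21.3 TPM in cerebellar microglia and 16.6, 11.9 and 13.4 TPM in forebrain microglia with IL-34, a log2 difference of 0.51 (SE 0.11, limma adjusted p = 0.0105). With CSF-1 it had 22.5, 23.9 and 22.4 TPM in cerebellar microglia and 15.1, 15.7 and 17.1 TPM in forebrain microglia, a log2 difference of 0.50 (SE 0.11, limma adjusted p = 0.0185). The regions did not overlap under either ligand. Fads1 (ENSMUSG00000010663, chr19:10182888-10196877) encodes the delta-5 desaturase of long polyunsaturated fatty acids such as arachidonate. It had 47.7, 49.1 and 51.5 TPM in cerebellar microglia and 44.2, 40.4 and 38.3 TPM in forebrain microglia with IL-34, and 51.3, 50.3 and 48.0 TPM in cerebellar microglia and 36.3, 40.3 and 40.3 TPM in forebrain microglia with CSF-1. Its log2 differences were 0.27 (SE 0.07, limma adjusted p = 0.0265) with IL-34 and 0.35 (SE 0.07, limma adjusted p = 0.0121) with CSF-1, again without overlap. Fads2, its partner at the delta-6 step, was much lower at 0.995 to 3.26 TPM and was not called.

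Of the genes whose steps feed Fasn, Acly and Acaca had higher means in the cerebellum under both ligands without passing the test in the main fit. Under IL-34, Acly was called higher in cerebellum after median-of-ratios scaling and after quantile normalization. It was also called on transcripts of 1000 nt or more with length and GC trends removed. Acly, whose product makes cytosolic acetyl-CoA from citrate, had 146, 151 and 158 TPM in cerebellar microglia and 146, 130.4 and 125 TPM in forebrain microglia with IL-34, at a log2 difference of 0.18 (SE 0.06, limma adjusted p = 0.0775). With CSF-1 it had 164, 170.0 and 158 TPM in cerebellar microglia and 141, 153 and 146 TPM in forebrain microglia, at a log2 difference of 0.16 (SE 0.06, limma adjusted p = 0.157). The regions did not overlap, although the nearest libraries under IL-34 were both at 146 TPM. Acaca, which encodes acetyl-CoA carboxylase, had 6.42, 7.27 and 4.68 TPM in cerebellar microglia and 4.71, 4.41 and 3.49 TPM in forebrain microglia with IL-34, and 7.20, 7.30 and 6.13 TPM in cerebellar microglia and 5.96, 4.56 and 5.56 TPM in forebrain microglia with CSF-1. Its regions overlapped under IL-34 and not under CSF-1. Elovl1, which encodes the elongase of very long saturated chains, was the most abundant fatty acid gene, with 291 to 330.3 TPM over all 12 libraries. Elovl5, at 41.4 to 50.5 TPM, and Acss2, Elovl6 and Fads2, all under 8 TPM, were not called in any of the 6 contrasts of the main fit. Elovl1 was called higher in cerebellum under IL-34 in the same settings as Acly, and Elovl5 and Elovl6 with the trends removed. In either region the ligand contrast of the main fit called 0 of the 10 fatty acid genes, and 0 had an unadjusted p under 0.05. After median-of-ratios scaling Elovl1 was called higher with IL-34 in the cerebellum and for the mean of both regions. With the trends removed, Fads1 was called higher with IL-34 in the forebrain and Scd2 in the cerebellum, and both for the mean. Other settings gave calls in the opposite direction. With array weights, 3 of the 34 genes were called lower with IL-34 for the mean, Scap among them. Without replicate 1 of forebrain microglia with IL-34, 3 were called lower as well, again with Scap. For the mean of both regions, Fasn and Acly had an unadjusted p under 0.05, with log2 differences of -0.19 (SE 0.07, limma adjusted p = 0.122) and -0.12 (SE 0.04, limma adjusted p = 0.0919). The sign of the branch's median ligand difference was not stable to scaling, at -0.03 in the forebrain but 0.02 after median-of-ratios scaling and 0.01 after quantile normalization, and at -0.12 in the cerebellum but 0.08 on transcripts of 1000 nt or more with length and GC trends removed.

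**Figure D4:**
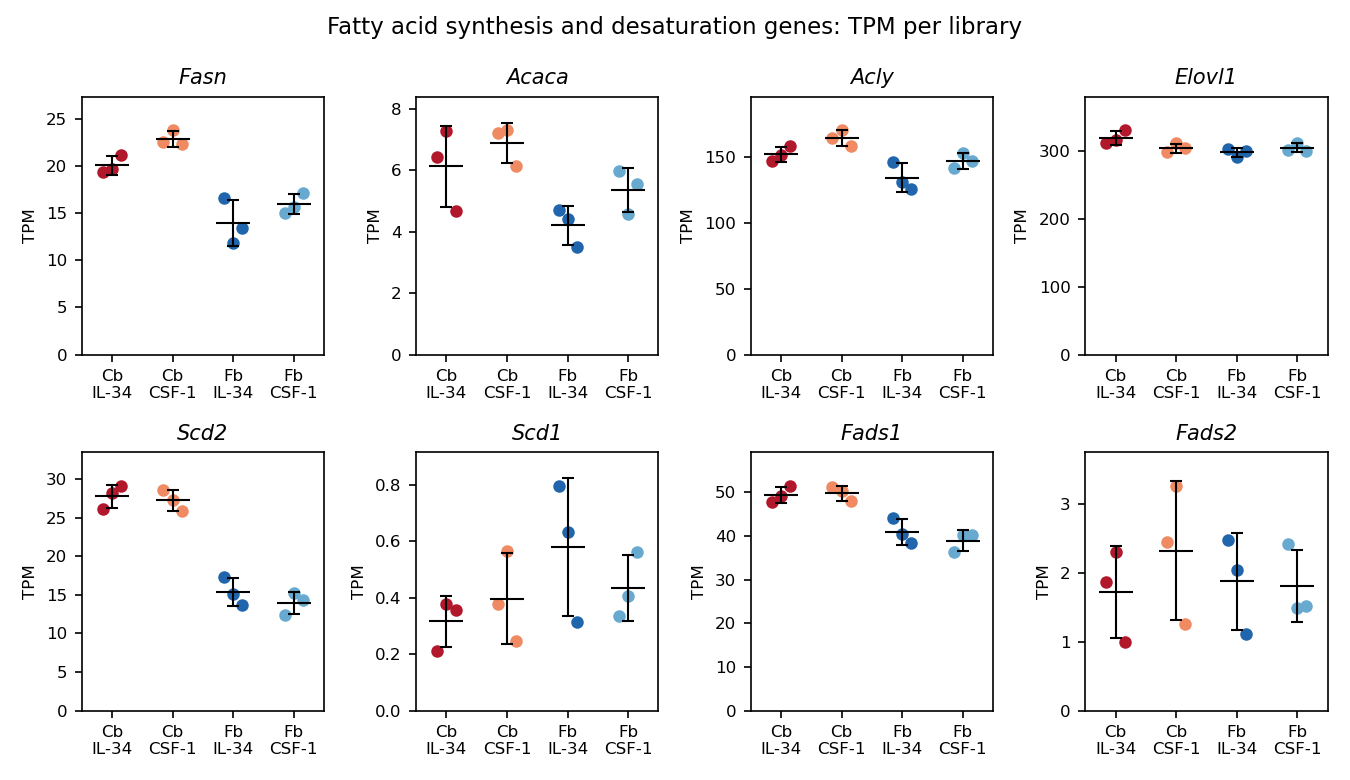
TPM per library (y axes, from 0) of 8 fatty acid genes in the 4 groups (Cb, cerebellum, Fb, forebrain), with group means and SD (n = 3). Scd2, Fasn and Fads1 separate the regions under both ligands, and Fasn also lies lower with IL-34 than with CSF-1 in the cerebellum without passing the test, while Scd1 stays under 1 TPM throughout.

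The 3 sterol genes called by region under both ligands in the main fit stand in the later part of the pathway, from the epoxidation of squalene onward. On transcripts of 1000 nt or more with length and GC trends removed, Hmgcs1, Idi1, Fdps and Fdft1 of earlier steps were also called under both ligands. Lss (ENSMUSG00000033105, chr10:76531588-76557138) encodes lanosterol synthase, which closes the sterol rings. It had 29.4, 28.04 and 34.01 TPM in cerebellar microglia and 20.7, 18.6 and 18.7 TPM in forebrain microglia with IL-34, and 23.4, 27.4 and 24.3 TPM in cerebellar microglia and 17.4, 19.4 and 16.9 TPM in forebrain microglia with CSF-1. The regions did not overlap, with log2 differences of 0.63 (SE 0.09, limma adjusted p = 0.00182) with IL-34 and 0.46 (SE 0.09, limma adjusted p = 0.0138) with CSF-1. Transcripts under 1000 nt made up a mean of 18.6% of the Lss signal in cerebellar and 0% in forebrain microglia with IL-34. With CSF-1 these means were 7.97% and 4.22%. Over all alternatives the log2 difference lay between 0.32 and 0.78 with IL-34 and between 0.30 and 0.52 with CSF-1. Under IL-34 the call of Lss was lost with the length floor as a covariate. Sc5d (ENSMUSG00000032018, chr9:42251595-42264256) encodes the C5 desaturase that acts just before Dhcr7. It had 78.6, 90.0 and 92.7 TPM in cerebellar microglia and 70.3, 66.9 and 60.3 TPM in forebrain microglia with IL-34, and 82.6, 79.3 and 79.2 TPM in cerebellar microglia and 58.1, 55.9 and 65.5 TPM in forebrain microglia with CSF-1. Its log2 differences were 0.40 (SE 0.08, limma adjusted p = 0.0102) with IL-34 and 0.42 (SE 0.08, limma adjusted p = 0.0118) with CSF-1, without overlap. Sqle (ENSMUSG00000022351, chr15:59315077-59331192) encodes squalene epoxidase, a rate-limiting step of the sterol branch. It had 118, 129 and 136 TPM in cerebellar microglia and 111, 99.2 and 106 TPM in forebrain microglia with IL-34, and 126, 122 and 122 TPM in cerebellar microglia and 99.8, 103 and 99.6 TPM in forebrain microglia with CSF-1. Again no libraries of the regions overlapped, at log2 differences of 0.27 (SE 0.06, limma adjusted p = 0.0131) with IL-34 and 0.29 (SE 0.06, limma adjusted p = 0.0155) with CSF-1.

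Under CSF-1, 4 further sterol genes were called, of which Hmgcs1, Fdft1 and Idi1 encode steps up to squalene and Cyp51 one after lanosterol. Hmgcs1, Fdft1 and Idi1 had log2 differences between cerebellum and forebrain of 0.31 (SE 0.07), 0.30 (SE 0.07) and 0.29 (SE 0.08), with limma adjusted p of 0.019, 0.0246 and 0.0426. Cyp51 (ENSMUSG00000001467, chr5:4081145-4104746), which encodes the enzyme that takes the first methyl group off lanosterol, had one of 0.44 (SE 0.10, limma adjusted p = 0.0249). Under IL-34 the same 4 genes had log2 differences of 0.16 (SE 0.07), 0.13 (SE 0.07), 0.04 (SE 0.08) and 0.26 (SE 0.10) in the order Hmgcs1, Fdft1, Idi1 and Cyp51, and were not called, with limma adjusted p of 0.112 or more. The difference between these region effects is the interaction tested above, which was not called for any of the 4.

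Of the 6 regulators, 0 were called by limma between regions under either ligand in the main fit, but this depends on the setting. Under IL-34, Srebf2 was called higher in cerebellum after median-of-ratios scaling (0.28, limma adjusted p = 0.0142) and quantile normalization (0.23, limma adjusted p = 0.0382). It was also called with a filter of 5 TPM, with array weights and in 2 of the 12 fits that left out a library. On transcripts of 1000 nt or more Srebf2 and Srebf1 were called higher in cerebellum under IL-34, and with length and GC trends also removed Srebf1 and Insig1 were. Srebf2 had 64.4, 74.5 and 70.6 TPM in cerebellar microglia and 63.7, 56.3 and 55.9 TPM in forebrain microglia with IL-34, without overlap, at a log2 difference of 0.25 (SE 0.08, limma adjusted p = 0.0538). With CSF-1 it had 67.9, 70.4 and 62.7 TPM in cerebellar microglia and 55.1, 60.7 and 60.3 TPM in forebrain microglia, at 0.19 (SE 0.08, limma adjusted p = 0.173). Insig1 had 74.8, 71.3 and 67.6 TPM in cerebellar microglia and 60.8, 61.9 and 58.4 TPM in forebrain microglia with CSF-1, a log2 difference of 0.23 (SE 0.07, limma adjusted p = 0.0902). With IL-34 the regions overlapped, at 78.5, 71.8 and 70.4 TPM in cerebellar microglia and 74.0, 74.5 and 62.6 TPM in forebrain microglia. Srebf1 lay between 45.3 and 72.0 TPM and Insig2 between 36.1 and 41.3 TPM over the 12 libraries, with overlap between regions under both ligands.

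Traces of other cell types moved with region as well. The 10 astrocyte markers summed to 21.6 to 26.9 TPM in cerebellar and 47.2 to 55.3 TPM in forebrain libraries. The 10 oligodendrocyte markers summed to 138 to 173 TPM in cerebellar and 125 to 153 TPM in forebrain libraries, mostly from Mbp and Cnp, and the 4 choroid plexus and ependymal markers to 14.8 to 57.9 TPM in cerebellar and 1.77 to 2.42 TPM in forebrain libraries, mostly from Ttr and Enpp2. The 8 mesenchymal markers summed to 4.73 to 7.83 TPM in cerebellar and 11.5 to 19.0 TPM in forebrain libraries, and the 7 neuronal markers to 0.381 to 1.39 TPM in cerebellar and 1.74 to 4.62 TPM in forebrain libraries. Their part in the region differences was not tested, and in bulk RNA fewer cells of a type and less RNA per cell cannot be told apart. Leaving out replicates 1 and 2 of cerebellar microglia with IL-34 kept 3 of the 6 calls under IL-34, where 2.01% of all genes were called, with log2 differences of 0.88 for Scd2, 0.78 for Lss and 0.37 for Sqle, and left 10 genes called under CSF-1, with 5.8% of all genes, where Idi1 had lost its call and Msmo1 gained one. Under IL-34, Scd2, Lss, Sc5d and Fasn were called with any of the 12 libraries left out, Sqle in 10 of 12 such fits and Fads1 in 8. Sqle lost its call without replicate 2 of cerebellar or of forebrain microglia with IL-34, and Fads1 without replicate 2 or 3 of either. Under CSF-1, Scd2 and Sc5d were called in all 12. The count under CSF-1 was 2 without replicate 1 of forebrain microglia with CSF-1, Sc5d and Scd2, 5 without replicate 3 of that group, and 4 without replicate 1 or replicate 2 of cerebellar microglia with CSF-1.

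The wider pathway was followed in a list of 52 further genes of sterol and fatty acid metabolism, of which 39 passed the filter on low values. For the mean of both regions 3 of the 39 were called higher with IL-34 and 3 lower, together 15.4% against 13.4% of all genes. Between regions 4 were higher and 2 lower in the cerebellum under IL-34, 15.4% against 13.5% of all genes, and 3 higher and 1 lower under CSF-1, 10.3% against 6.71%. In the cerebellum alone IL-34 gave 2 higher and 6 lower, 20.5% against 12.8% of all genes, with Acat1, which encodes a mitochondrial thiolase, Erlin1, part of a sterol-dependent degradation complex of the endoplasmic reticulum, and the acyl-CoA synthetase gene Acsl4 the lower ones with the smallest p. Their log2 differences were -0.33 (SE 0.08, limma adjusted p = 0.0235), -0.33 (SE 0.08, limma adjusted p = 0.0267) and -0.25 (SE 0.06, limma adjusted p = 0.0317). All 3 calls were lost after median-of-ratios scaling and without replicates 1 and 2 of cerebellar microglia with IL-34, where the log2 differences were -0.17, -0.23 and -0.20 with limma adjusted p of 0.375 to 0.416. With single libraries left out, Acat1 and Erlin1 lost their call without any 1 of the cerebellar CSF-1 libraries or replicate 1 or 2 of cerebellar microglia with IL-34, and Acsl4 in 4 of the 12 fits. Acsl4 shrank to -0.041 on transcripts of 1000 nt or more with length and GC trends removed. In the forebrain 0 of the 39 were called by limma, with 1.2% of all genes called.

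The 3 genes of this list that rose with IL-34 for the mean of both regions were Soat1, Npc2 and Hacd4. Soat1, which encodes the enzyme that esterifies cholesterol for storage, had 353, 416 and 411 TPM in cerebellar microglia with IL-34 and 364, 311 and 315 TPM in cerebellar microglia with CSF-1. Its forebrain values were 366, 364 and 349.6 TPM with IL-34 and 296, 295 and 301 TPM with CSF-1. The mean log2 difference was 0.26 (SE 0.05, limma adjusted p = 0.00829), and overlap was confined to the cerebellum. Npc2, which encodes the lysosomal protein that hands cholesterol to NPC1, had 386, 369 and 379.6 TPM in cerebellar microglia with IL-34 and 352, 332 and 344 TPM in cerebellar microglia with CSF-1. In the forebrain it had 398, 398 and 383 TPM with IL-34 and 339.8, 325 and 355 TPM with CSF-1, without overlap in either region, and the mean log2 difference was 0.18 (SE 0.03, limma adjusted p = 0.00625). Hacd4, a dehydratase gene of the elongation cycle, had a mean log2 difference of 0.35 (SE 0.07, limma adjusted p = 0.00746) between the ligands, yet was lower in cerebellum than in forebrain, with log2 differences of -0.39 (SE 0.09) with IL-34 and -0.40 (SE 0.09) with CSF-1.

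Soat2, which encodes another cholesterol-esterifying enzyme, was low but higher in cerebellum. It had 8.37, 8.10 and 8.15 TPM in cerebellar microglia and 5.80, 4.41 and 5.83 TPM in forebrain microglia with IL-34, and 9.02, 9.09 and 8.06 TPM in cerebellar microglia and 4.56, 5.46 and 6.23 TPM in forebrain microglia with CSF-1. No libraries of the regions overlapped, and the log2 differences were 0.54 (SE 0.12, limma adjusted p = 0.0151) with IL-34 and 0.61 (SE 0.12, limma adjusted p = 0.0146) with CSF-1. Under IL-34 the call was lost without replicate 2 of forebrain microglia with IL-34, with the length floor as a covariate, and without replicates 1 and 2 of cerebellar microglia with IL-34, where the log2 difference was 0.54 (limma adjusted p = 0.226). Under CSF-1 it was lost without replicate 1 or 2 of cerebellar or replicate 1 of forebrain microglia with CSF-1, and with only the groups compared.

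Of 9 genes of the LXR system, the nuclear receptors that sense oxysterols and drive cholesterol efflux, all 9 passed the filter. Between ligands 1 was called higher and 1 lower with IL-34 for the mean of both regions, with 13.4% of all genes called. Between regions 0 were higher and 2 lower in the cerebellum under IL-34, with 13.5% of all genes called, and 1 higher and 3 lower under CSF-1, with 6.71% of all genes called. The receptor gene Nr1h3 ran against the sterol genes by region. It had 20.2, 14.3 and 17.1 TPM in cerebellar microglia and 34.7, 39.5 and 36.4 TPM in forebrain microglia with IL-34, and 15.2, 17.2 and 16.1 TPM in cerebellar microglia and 35.1, 31.6 and 38.1 TPM in forebrain microglia with CSF-1. The log2 differences were -1.07 (SE 0.11, limma adjusted p = 0.000227) and -1.06 (SE 0.11, limma adjusted p = 0.000341), in that order. Ch25h, whose product makes the oxysterol 25-hydroxycholesterol, a brake on SREBP processing, was lower with IL-34 than with CSF-1 in each region and lower in cerebellum than in forebrain under each ligand, with log2 differences between -1.18 and -0.80 in the 4 contrasts.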

How the data were processed

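The authors deposited 1 table of TPM per Ensembl transcript with a column for each of the 12 libraries, and per the submitters' processing notes kallisto 0.43.0 and the GRCm38 build were used. No source used here gives the annotation release. Per the labels' protocols libraries were made with SMART-Seq v4, which does not mark strand, and the extraction text speaks of human tissue although all else is mouse. TPM sums to 1000000 in every library, so depth and counting error are unknown.

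Transcript TPM was summed per Ensembl gene ID. Genes at 1 TPM or more in 3 or more libraries (12419) entered a model of the 4 group means of log2(TPM + 1), fitted by limma 3.58.1 (R 4.3.3) with 8 residual degrees of freedom and a trended prior variance. Tests were two-sided with Benjamini-Hochberg adjustment per contrast over all genes and a threshold of 0.05. The pseudocount shrinks the differences of low genes. The fit was also run on simulated data with independent noise for each gene. Those data held no length differences shared by a library, so they cannot show how calls fare under the ones seen here. The 35 genes and all gene lists were chosen with earlier results of these data known. Values per library are given for genes past the threshold in 1 of the 6 contrasts or with the 4 smallest p of their list, and up to 4 neighbouring genes per contrast are named, while some are not reported here. The region and ligand groups come from the labels. Correlations between same-numbered libraries of their deviations from the group means ran from -0.454 to 0.458. They take in spread from any source, so they cannot decide whether the replicate numbers pair the libraries. No libraries were identical, and p-values measure the spread between these cultures. Transcript lengths and gene coordinates come from GENCODE M21 (98.6% of transcripts matched), and promoter windows from RefSeq. Alternatives changed the pseudocount, the filter, the scaling, the transcripts counted, the variance model and the libraries, and 2 sets of libraries were left out after seeing the data.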

Additional observations from a re-analysis of the deposited data

How the results depend on the processing

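Direction was stable where calls were not: the median difference of the sterol step genes stayed above 0 in both regions, for their mean and between regions under both ligands in all alternatives run. After each count of the 34 genes called stands the percentage of all genes called in the same fit. In the forebrain, where 0 genes were called between ligands, 1 (1.84%) was called with a filter of 5 TPM, 4 (2.0%) with median-of-ratios scaling, 3 (1.33%) with quantile normalization, 5 (3.87%) on transcripts of 1000 nt or more, 8 (8.02%) with length and GC trends also removed, 1 (2.05%) with the length floor as a covariate and 3 (3.85%) with limma's array weights. In the cerebellum the 4 calls became 1 (3.24%) without a filter, 9 (9.65%) with median-of-ratios scaling, 13 (13.9%) with trends removed, 0 (0.298%) with the covariate, 1 (9.54%) without the variance trend, 0 (6.26%) with only the groups compared and 0 (0.539%) in 10 libraries, without replicates 1 and 2 of cerebellar microglia with IL-34. That fit assumes that the 1 library left in the group varies like the others. For the mean of both regions the 6 calls became 13 (10.7%) with median-of-ratios scaling, 16 (18.6%) with trends removed, 3 (5.01%) with the covariate, 10 (20.7%) with array weights, of which 7 were higher and 3 lower, and 0 (3.2%) in 10 libraries. For cerebellum against forebrain under IL-34 the 6 calls became 10 (16.3%) with median-of-ratios scaling, 10 (14.9%) with quantile normalization, 1 of them lower, 11 (20.1%) on transcripts of 1000 nt or more, 20 (19.2%) with trends removed, 2 (1.01%) with the covariate, 12 (18.8%) with array weights, 1 of them lower, 3 (9.54%) with only the groups compared and 3 (2.01%) in 10 libraries. Under CSF-1 the 10 calls stayed within 1.5 times in these alternatives, and the interaction stayed at 0 calls. The cause of these changes was not tested.

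With 1 library left out at a time, the calls ranged from 0 to 1 in the forebrain, 0 to 4 in the cerebellum, 3 to 7 for the mean of both regions, 4 to 9 between regions under IL-34 and 2 to 11 under CSF-1, with 0 to 0 for the interaction. With the replicate number as a block, 0 genes were called in the forebrain, 0 in the cerebellum and 4 for the mean of both regions. Between regions, 5 were called under IL-34 and 9 under CSF-1 in that fit. Whether the numbers pair the libraries is unknown. Depth is unknown, so no limit from counting error can be given.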
